A study of Arabidopsis thaliana with 25 samples.

Results

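Roots of *Arabidopsis thaliana* were examined for 8 genes that act when the root tip meets a soil poor in phosphate. The main test, edgeR, called none of them in any of the 14 comparisons of P regime and genotype. It called at most 0.0714% of all genes in any comparison, so this does not set the 8 apart from other genes. DESeq2, an alternative test, called ALMT1 in 1 comparison. The genes were picked by their identifiers from a count table of 27206 nuclear protein-coding genes. They are the transcription factor gene STOP1 (AT1G34370), the exudation genes ALMT1 (AT1G08430) and MATE (AT1G51340), the transporter complex genes ALS3 (AT2G37330) and STAR1 (AT1G67940), the ferroxidase genes LPR1 (AT1G23010) and LPR2 (AT1G71040), and PDR2 (AT5G23630), which codes for an ATPase of the endoplasmic reticulum. PDR2 lies on chromosome 5, ALS3 on chromosome 2 and the rest on chromosome 1. Expression is given as CPM, the reads of a gene scaled to a common total of reads counted on all genes of that library.

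When phosphate runs short at the root tip, the primary root can stop growing, and these genes are known for that arrest. STOP1 is a zinc finger protein, also known from aluminium and acid tolerance, that accumulates in the nucleus and switches on ALMT1. ALMT1 is a malate channel, and the malate it releases binds iron in the cell walls of the tip, where the ferroxidase LPR1 oxidises iron and the cells stop dividing. MATE exports citrate, another acid that binds aluminium and iron. ALS3 and STAR1 form an ABC transporter that holds this response back, PDR2 restrains LPR1, and LPR2 is the close relative of LPR1. STOP1 is controlled to a large extent as a protein, which RNA levels do not show.

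All plants were 8 weeks old, grown in a greenhouse under short days in soil from a long-term field experiment with low, medium and high P fertilisation. A set of low P pots received 12.6 mg of P each in 3 applications of 4.2 mg, and is called low+P (low+Pi in the labels). Col-0 is the wild type, phf1 is a mutant of a protein without which phosphate transporters do not reach the plasma membrane, and phr1 phl1 is mutated in PHR1 and PHL1, transcription factors of the phosphate starvation response, both in the Col-0 background. The 25 libraries comprised 3 each of Col-0 and phf1 in low, medium and high P, 2 each in low+P, 2 of phr1 phl1 in low P and 1 of phr1 phl1 labelled low+P. Each library was made from poly(A) RNA of a whole root system, so the tip was a part of what was sequenced. The counts name the group of a library but not its replicate or plot, and libraries of a group are therefore called A, B and C without order.

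Total counts ran from 2368981 to 7408960, with a median of 4391517, so that 1 CPM was a few reads. PHR1 had 31.9 and 37.9 CPM in phr1 phl1 on low P soil, against 49.0 to 77.9 CPM over the 22 libraries of the other genotypes. In the phr1 phl1 library labelled low+P it had 73.6 CPM, within that range. That library was closest in all its counts to a phf1 low+P library, at a median chi-square of 0.824, the lowest of all 300 pairs, where sampling alone gives 0.455. Within groups, the largest values were 11.7 and 9.85, for Col-0 low library C with libraries A and B. Between A and B it was 1.24, so library C stood apart from its group over all genes. PHL1 ran from 64.1 to 95.9 CPM in phr1 phl1 and from 13.9 to 87.1 CPM elsewhere, and PHF1 from 8.997 to 29.1 CPM in phf1 and from 14.8 to 46.9 CPM in Col-0, so RNA of these genes does not check the labels. All 9 markers of root tip cells were in the table, and 6 of them had a median of at least 1 CPM. PLT1, a stem cell niche regulator, and KNOLLE, which acts in cytokinesis, were above 0 in every library, whereas WOX5, the defining gene of the quiescent centre, was at 0 in 4 libraries. The summed CPM of the 9 markers ran from 6.63 in a Col-0 medium P library to 84.5 in another library of that group.

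The 8 genes stood at very different levels. Divided by exon length, the median level of STOP1 was 86.2 CPM per kb, the highest of the 8. PDR2 followed at 32.5, LPR2 at 22.2, STAR1 at 20.2 and ALS3 at 12.1 CPM per kb. MATE at 2.42, ALMT1 at 2.34 and LPR1 at 1.32 CPM per kb were the lowest. No 50-base stretch of their exons was found elsewhere in the genome. STOP1, ALS3, STAR1 and LPR1 overlap a gene on the opposite strand, and since the libraries were not stranded, reads of such a pair cannot be told apart in the overlap.

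**Figure D1:**
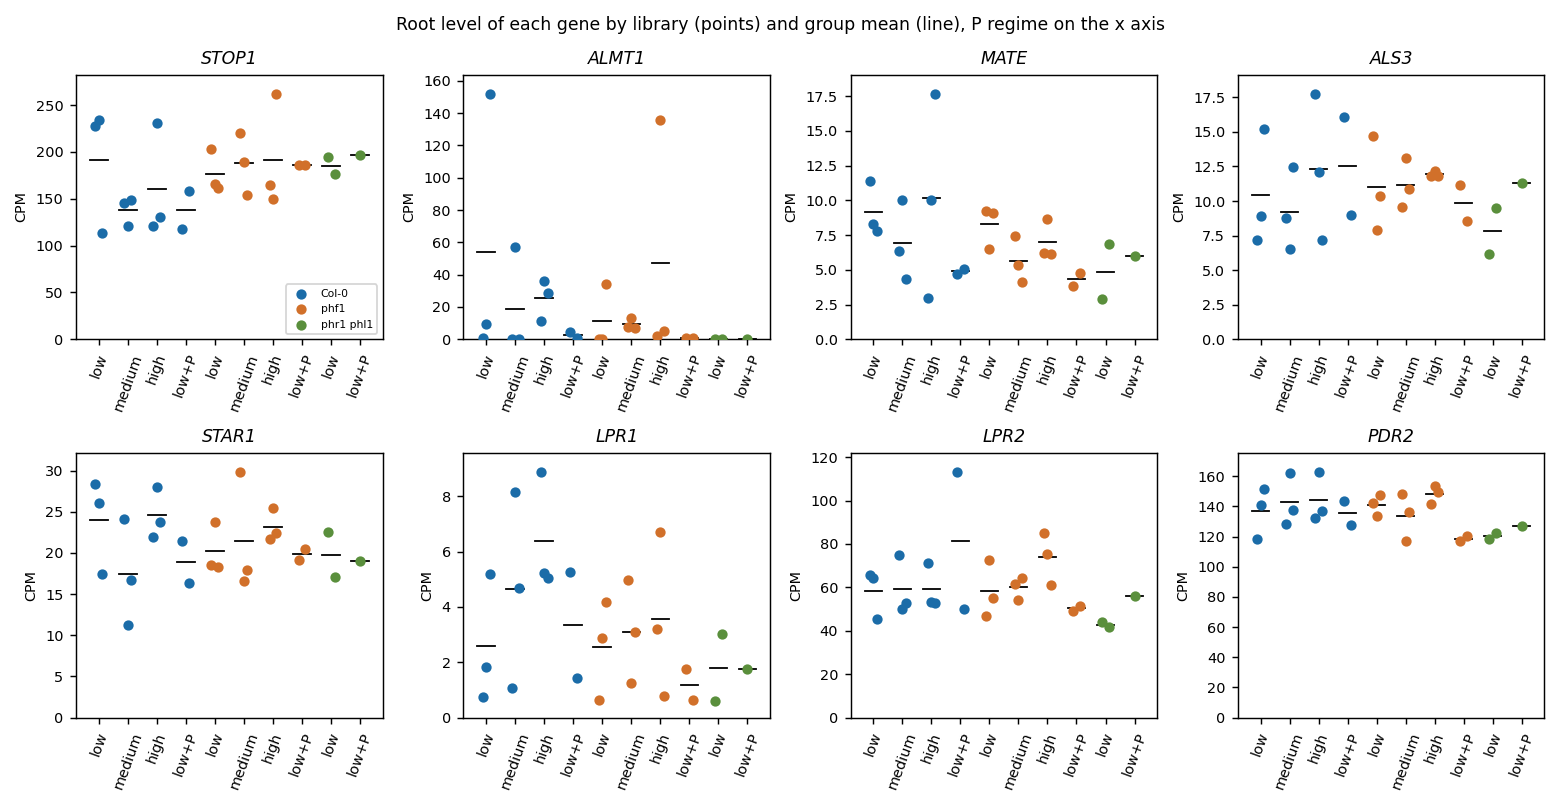
Level of the 8 genes in CPM (y axis, from 0) in each of the 25 libraries (points, coloured by genotype) with the group mean (line), by P regime (x axis). ALMT1 runs from 0 to 152 CPM with single high libraries in Col-0 low and phf1 high P, while PDR2 stays between 117 and 163 CPM.

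All 8 genes passed the filter on low counts, and edgeR's quasi-likelihood test (adjusted p below 0.1) called 0 of them in each comparison. Across the 6 groups of low and low+P it called 0% of the 18830 genes tested. It called 0.00531% of genes between low and low+P in Col-0, 0% in phf1, 0.00531% between phf1 and Col-0 in low P, and 0% between phr1 phl1 and Col-0 in low P. Over the 10 groups it called 0.0153% of 19603 genes. Of the regime comparisons with all 25 libraries, Col-0 low against medium P gave 0.0051%, Col-0 low against high P, phf1 low against medium P and phf1 low against high P 0% each, and low P against the mean of the 3 other regimes 0.0561% in Col-0 and 0% in phf1. Averaged over 4 regimes, phf1 against Col-0 gave 0.0714%, and the difference of that genotype effect between low P and the other regimes gave 0.0051%. Over all genes these shares depended on single libraries. Without Col-0 medium library C, Col-0 low against medium P called 989 genes instead of 1, low P against the 3 other regimes in Col-0 328 instead of 11, phf1 against Col-0 362 instead of 14, and the 10 groups 111 instead of 3. Of the 8 members, 0 were called in these fits too. At an unadjusted p below 0.05, edgeR found 1 of the 8, ALMT1, between phr1 phl1 and Col-0 in low P, where 7.54% of all genes reached that level, and 0 of the 8 in each other comparison. There, the share of all genes was 3.6% across the 6 groups, 7.27% and 0.898% for low against low+P in Col-0 and phf1, and 4.65% for phf1 against Col-0 in low P. With all libraries it was 7.27% across the 10 groups, 10.3% and 7.96% for Col-0 low against medium and high P, 2.88% and 2.53% for phf1, and 9.9% and 2.06% for low P against the mean of the other regimes in Col-0 and phf1. It was 12.4% for phf1 against Col-0 and 6.01% for the difference of that effect in low P. Between phr1 phl1 and Col-0 in low P, DESeq2 called ALMT1, beside 0.972% of all genes. It called no other of the 8 in any comparison.

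STOP1, the transcription factor at the head of the list, was abundant in every library, from 113 to 262 CPM. In Col-0 low P it stood at 227, 234 and 113 CPM, in medium P at 145, 121 and 149 CPM, in high P at 121, 231 and 131 CPM, and in low+P at 117 and 158 CPM. In Col-0 low P a pair of libraries was thus high, but library C was the lowest of all 25. Against the mean of the 3 other regimes, the log2 fold change in low P was 0.44 (SE 0.23, 95% interval −0.05 to 0.93), with an adjusted p of 0.547 in edgeR. In phf1 STOP1 stood at 203, 166 and 161 CPM in low P, 220, 190 and 154 CPM on medium P soil, 164, 149 and 262 CPM in high P, and 186 and 187 CPM in low+P. These groups overlapped, with no regime apart from the others.

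The 2 phr1 phl1 low P libraries had 194 and 176 CPM of STOP1, inside the Col-0 range, and the phr1 phl1 library labelled low+P had 196 CPM. Averaged over the 4 regimes, the log2 fold change of STOP1 in phf1 over Col-0 was 0.26 (SE 0.15, edgeR adjusted p = 0.489). The sum of 8 leaf photosynthesis genes ran from 57.3 to 1854 CPM in phf1 and from 39.2 to 159 CPM in Col-0, and its part in this value was not tested. The difference of the genotype effect between low P and the other regimes was −0.49 (SE 0.34, edgeR adjusted p = 0.848). In the order of the 10 group means, from 196 down to 138 CPM, all 9 neighbouring groups overlapped.

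ALMT1, the malate channel, was the most variable of the 8. Its coefficient of variation within groups was 218%, above that of 99.2% of the genes that average 1 CPM or more, and it was at 0 in 5 of 25 libraries. In Col-0 low P it stood at 0.745, 9.50 and 152 CPM, which is 3, 31 and 469 reads. Library C thus held 93.7% of the summed CPM of its group. These libraries of 1 group spanned nearly the range of all 25.

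Col-0 medium P showed 0, 56.9 and 0 CPM of ALMT1, high P 11.4, 36.0 and 28.8 CPM, and low+P 4.59 and 0.899 CPM. In phf1 ALMT1 stood at 0.319, 0 and 34.3 CPM in low P, 7.80, 13.1 and 7.08 CPM on medium P soil, 1.87, 136 and 4.88 CPM in high P, and 0.872 and 0.835 CPM in low+P. One library carried 99.1% of the summed level in phf1 low P and 95.3% in phf1 high P. Only Col-0 high P and phf1 medium P, of the groups with 3 libraries, had ALMT1 above 5 CPM in each of them.

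The fold changes of ALMT1 had intervals wider than those of any other of the 8 in the main comparisons. Low P over low+P in Col-0 was 4.30 on the log2 scale (SE 2.33, 95% interval −0.94 to 9.54, edgeR adjusted p = 0.765). Without Col-0 low library C the value was 0.72. Low P over the mean of the 3 other regimes was 2.43 (SE 1.43, edgeR adjusted p = 0.603) in Col-0, and turned to −1.20 without library C. Low over high P in phf1 was −1.87 (SE 1.87, edgeR adjusted p = 1), and turned to 1.80 without phf1 high library B.

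No read of ALMT1 was counted in either phr1 phl1 low P library, and the phr1 phl1 library labelled low+P held 1 read, or 0.221 CPM. Against a floor of 3 counts per library, the mean of Col-0 low P was at least 53.6-fold higher than that of phr1 phl1 low P. Without Col-0 low library C it was at least 5.09-fold higher, which rests on library B. Library A, with 3 reads or 0.745 CPM, lay below the mean floor of 1.01 CPM, so it cannot be told from phr1 phl1 low P. These bounds cover counting error only. The unadjusted p of edgeR was 0.0316 and its adjusted p 0.639, whereas DESeq2 gave an adjusted p of 0.0677. By the labels the phr1 phl1 low P soils came from plots 10 and 16 and the Col-0 low P soils from plots 1, 4 and 7, so genotype and plot cannot be told apart in this comparison. In the phf1 low P group, 1 library was also at 0, so an ALMT1 level of 0 was not particular to phr1 phl1.

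Across the 25 libraries, ALMT1 went with genes that mark cells of the young root. The summed CPM of the root tip markers was 9.69, 20.5 and 76.7 in Col-0 low P libraries A, B and C, in the order of their ALMT1. A second list holds 6 genes of root hairs and the endodermis, such as CASP1 and CASP2, which build the Casparian strip, and its sum was 14.7, 18.1 and 408 CPM in these libraries. In phf1 low P it was 4.46, 6.13 and 73.8 CPM, and in phf1 high P 25.9, 249 and 34.7 CPM, again highest where ALMT1 was. In the 2 phr1 phl1 low P libraries, with ALMT1 at 0, the root tip sum was 11.4 and 29.97 CPM and the root hair and endodermis sum 9.64 and 14.8 CPM. Col-0 medium library C broke the pattern, with ALMT1 at 0 beside a root tip sum of 84.5 CPM, the highest of all 25, and a root hair and endodermis sum of 116 CPM. In Col-0 low+P the order was reversed, with ALMT1 at 4.59 and 0.899 CPM beside root tip sums of 22.8 and 63.9 CPM. In phf1 medium P the library with the most ALMT1, 13.1 CPM, had the lowest root tip sum of its group, 53.1 CPM. Library A of phf1 low+P had 0.872 CPM of ALMT1 beside a root tip sum of 47.6 CPM. The phr1 phl1 library labelled low+P had 0.221 CPM beside 43.8 CPM.

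On the log2 scale Pearson's r of ALMT1 with the root tip sum was 0.62 and Spearman's rho 0.60 (25 libraries, permutation p = 0.0011 and 0.00191, adjusted over 32 relations 0.0088 and 0.0153). With the root hair and endodermis sum r was 0.72 and rho 0.68 (permutation p = 5e-05 and 0.00028, adjusted 0.0016 and 0.00299). Without the 2 libraries farthest from the median of the sum, r was 0.57 and 0.64. For deviations from the group means it was 0.63 and 0.66, values that were not tested, and in some groups the order was reversed. By this measure STAR1 (−0.68) and LPR2 (−0.61) went as far the other way with the root tip sum. Over all libraries their r, −0.47 and −0.31, did not pass (permutation p = 0.0188 and 0.126, adjusted 0.12 and 0.394). For the sum of 8 leaf photosynthesis genes the relation with ALMT1 did not pass (r = −0.24, rho = −0.34, permutation p = 0.243 and 0.0931, adjusted 0.556 and 0.271). In whole root systems, fewer cells of a type and less RNA per cell cannot be told apart. The part of root tip cells in the ALMT1 differences between groups was not tested.

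**Figure D2:**
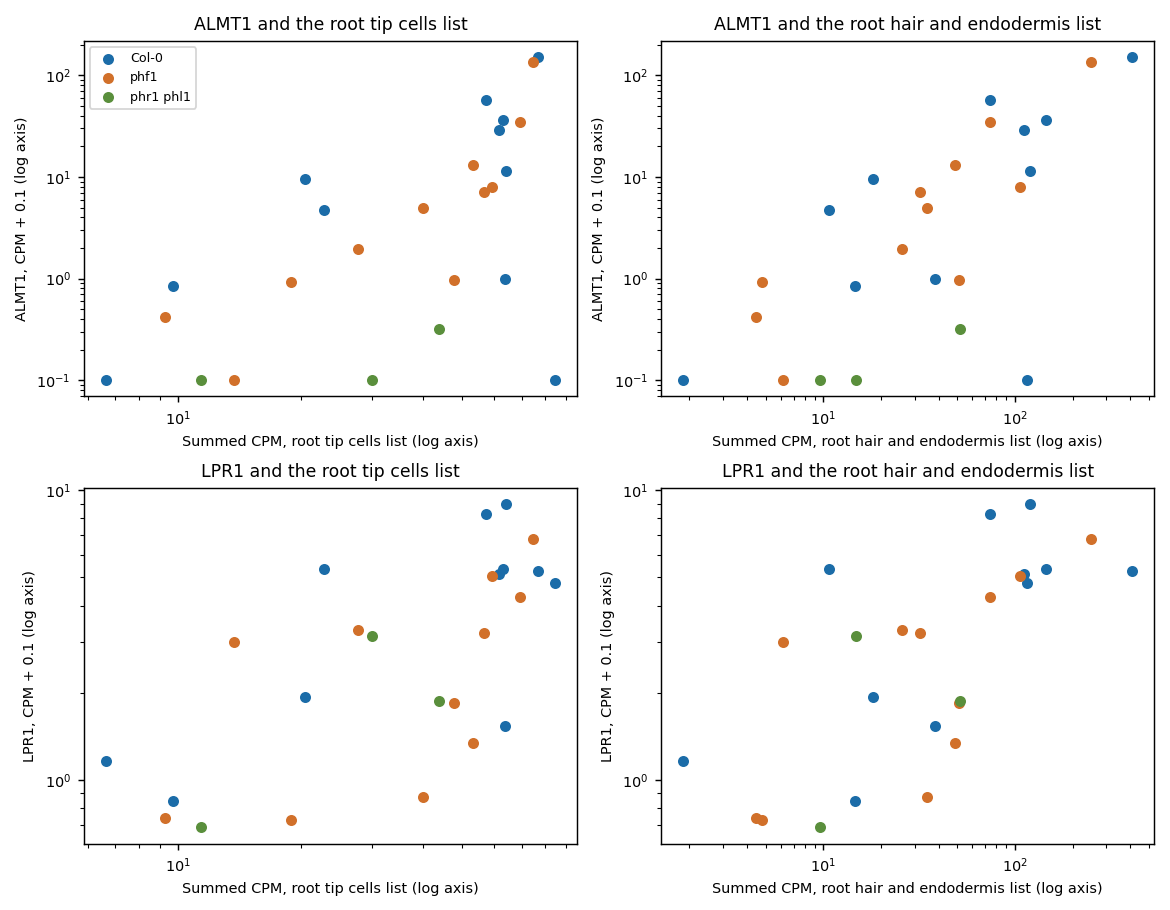
CPM of ALMT1 (upper row) and LPR1 (lower row), with 0.1 added, against the summed CPM of the root tip list (left) and the root hair and endodermis list (right), all on log axes, in 25 libraries coloured by genotype. Both genes tend to be higher where the sums are higher, with exceptions such as ALMT1 at 0 in a Col-0 library whose sums are 84.5 and 116 CPM.

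MATE, the citrate exporter, was the only one of the 8 whose low P libraries all lay above the low+P libraries in both Col-0 and phf1. In low P, Col-0 libraries had 11.4, 8.28 and 7.77 CPM of MATE, and those in low+P 4.72 and 5.04 CPM. In phf1 the low P libraries had 9.25, 6.49 and 9.08 CPM and those in low+P 3.84 and 4.80 CPM. Of all 18830 genes, 8.37% were separated in this direction in Col-0, 6.71% in phf1, where PDR2 was too, and 0.749% in both.

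The log2 fold change of MATE was 0.91 in Col-0 (SE 0.42, 95% interval −0.03 to 1.84, unadjusted p = 0.0563, edgeR adjusted p = 0.703). In phf1 it was 0.92 (SE 0.43, 95% interval −0.03 to 1.87, unadjusted p = 0.0560, edgeR adjusted p = 1). Neither passed the test. The values rest on 18 to 50 reads per library.

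MATE overlapped between low P and the other soils. In Col-0 it stood at 6.37, 10.0 and 4.33 CPM in medium P and at 2.95, 10.0 and 17.7 CPM in high P, the widest range of any group. In phf1 it stood at 7.44, 5.38 and 4.14 CPM in medium P and at 6.19, 8.64 and 6.17 CPM in high P. The low P libraries overlapped both regimes in each genotype. Sets of 3 against 3 libraries separate less readily than 3 against 2. In Col-0, 10.8% of genes were separated in either direction between low and medium P and 12.5% between low and high P, against 19.1% between low and low+P, and in phf1 the shares were 7.74%, 5.41% and 12.3%. Whether MATE differed more from low+P than from the other regimes was not tested.

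In phr1 phl1 low P, MATE stood at 2.92 and 6.83 CPM, below all Col-0 low P libraries, with a log2 fold change of −0.92 (SE 0.44, edgeR adjusted p = 0.639). The phr1 phl1 library labelled low+P had 5.97 CPM, between them. Of all genes, 14% were lower without overlap in this comparison, and of the 8 these were MATE, ALMT1 and LPR2. For ALMT1 the separation rests on the 3 reads of Col-0 low library A. The joint pattern of MATE, above low+P in both genotypes and lower in phr1 phl1, was shared by 0.51% of the genes tested, beside 0.749% without the phr1 phl1 part. The pattern was taken from the values of MATE, and its Col-0 and phr1 phl1 parts share the Col-0 low P libraries, so these shares are a description only. As for ALMT1, genotype and plot cannot be told apart in the comparison with phr1 phl1. Unlike ALMT1, MATE had no relation past the threshold with the root tip sum (r = −0.06, rho = −0.02, permutation p = 0.775 and 0.91, adjusted 0.871 and 0.913).

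**Figure D3:**
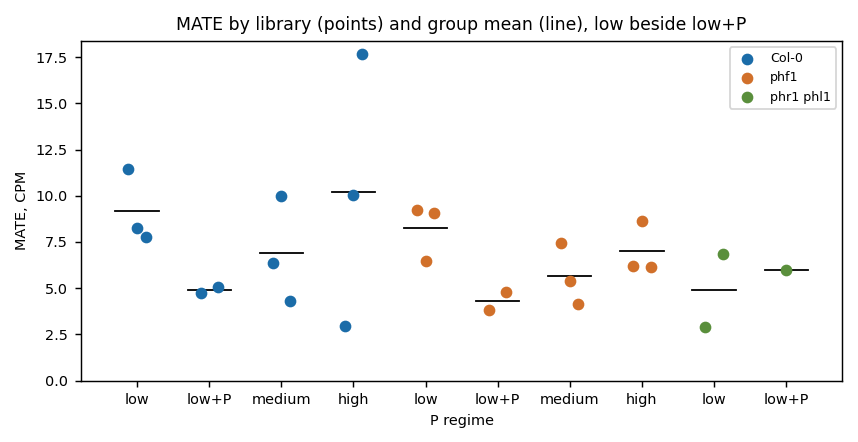
MATE level in CPM (y axis, from 0) by library (points, coloured by genotype) and group mean (line), with low P beside low+P. The Col-0 and phf1 low P libraries, from 6.49 to 11.4 CPM, lie above their low+P libraries, from 3.84 to 5.04 CPM.

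ALS3 and STAR1, the parts of the ABC transporter, varied within groups by 31.4% and 22.2% (coefficient of variation), near the 48.8th and 27.1st percentile of the genes that average 1 CPM or more. ALS3, the membrane protein, ran from 6.14 to 17.7 CPM and STAR1, the ATP-binding protein, from 11.2 to 29.8 CPM. In Col-0 ALS3 stood at 7.21, 8.89 and 15.2 CPM in low P, 8.76, 6.53 and 12.4 CPM on medium P soil, 17.7, 12.1 and 7.20 CPM in high P, and 16.1 and 8.99 CPM in low+P. All of these groups overlapped. Against the mean of the 3 other regimes, the log2 value of ALS3 in low P was −0.04 (SE 0.33, 95% interval −0.72 to 0.65, edgeR adjusted p = 0.986).

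STAR1 in Col-0 had 28.3, 26.1 and 17.5 CPM on low P soil, 24.1, 11.2 and 16.8 CPM on medium P soil, 21.95, 28.0 and 23.8 CPM on high P soil, and 21.5 and 16.4 CPM in low+P. Its value for low P over the 3 other regimes was 0.29 (SE 0.24, 95% interval −0.21 to 0.79, edgeR adjusted p = 0.742). The group means of STAR1 ran from 17.4 to 24.6 CPM, and all 9 neighbours in their order overlapped. In phr1 phl1 low P, ALS3 stood at 6.14 and 9.48 CPM and STAR1 at 22.5 and 17.1 CPM, both overlapping Col-0. Although the proteins act together, their RNA levels had no relation past the threshold over the 25 libraries (r = −0.02, rho = −0.15, permutation p = 0.936 and 0.471, adjusted over 28 pairs 0.967 and 0.67).

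LPR1, the ferroxidase of the tip, was the lowest of the 8 and rested on 2 to 40 reads per library. In Col-0 it stood at 0.745, 1.84 and 5.18 CPM in low P, 1.06, 8.16 and 4.69 CPM on medium P soil, 8.86, 5.24 and 5.04 CPM in high P, and 5.26 and 1.44 CPM in low+P. The low and high P libraries overlapped only through low library C. Low over high P was −1.12 on the log2 scale (SE 0.91, 95% interval −3.02 to 0.78, edgeR adjusted p = 0.832), and −2.23 to −0.65 when single libraries were left out. The summed root tip markers of Col-0 high P were 64.2, 63.1 and 61.6 CPM against 9.69, 20.5 and 76.7 CPM in low P.

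In phf1 LPR1 stood at 0.638, 2.88 and 4.18 CPM in low P, 4.96, 1.24 and 3.11 CPM on medium P soil, 3.19, 6.70 and 0.771 CPM in high P, and 1.74 and 0.626 CPM in low+P. Averaged over the regimes it was −0.76 on the log2 scale relative to Col-0 (SE 0.48, 95% interval −1.76 to 0.24, edgeR adjusted p = 0.525). In phr1 phl1 low P it stood at 0.585 and 3.04 CPM, and in the phr1 phl1 library labelled low+P at 1.77 CPM. No genotype was apart from another.

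Like ALMT1, LPR1 went with the markers of the young root. Its r with the root tip sum was 0.65 and rho 0.70 (permutation p = 0.00063 and 0.00016, adjusted over 32 relations 0.00672 and 0.00256). With the root hair and endodermis sum r was 0.66 and rho 0.73 (permutation p = 0.00053 and 0.00012, adjusted 0.00672 and 0.00256). Without the 2 farthest libraries r was 0.59 and 0.64, and for deviations from group means 0.64 and 0.66. The part of root tip cells in the LPR1 levels was not tested.

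LPR2 was far more abundant than its relative. Per exon length its level was 5.66 to 81.3 times that of LPR1 in the same library, with a median of 23.3. The Col-0 low P libraries had 65.6, 64.4 and 45.3 CPM of LPR2 and those in low+P 113 and 49.8 CPM, so the low+P libraries lay on both sides. The log2 fold change was −0.52 (SE 0.34, 95% interval −1.28 to 0.24, edgeR adjusted p = 0.831), and it turned to 0.31 without low+P library A. In Col-0 high P it ran from 53.0 to 71.3 CPM and in phf1 from 46.9 to 84.9 CPM. In phr1 phl1 low P, LPR2 stood at 43.8 and 41.7 CPM, just below the lowest Col-0 library, with a log2 fold change of −0.42 (SE 0.36, edgeR adjusted p = 0.695). LPR1 and LPR2 had no relation past the threshold over the 25 libraries (r = 0.16, rho = 0.15, permutation p = 0.446 and 0.478, adjusted 0.624 and 0.67).

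PDR2, the restraint on LPR1, was the steadiest of the 8, with a coefficient of variation within groups of 9.54%, lower than that of all but 0.607% of the genes that average 1 CPM or more. In Col-0 it stood at 118, 141 and 152 CPM in low P, 128, 162 and 138 CPM on medium P soil, 132, 163 and 137 CPM in high P, and 144 and 128 CPM in low+P. Low P over the mean of the 3 other regimes was 0.03 on the log2 scale, with a 95% interval of −0.26 to 0.31 (edgeR adjusted p = 0.973). The difference between phf1 and Col-0 averaged over 4 regimes was −0.06, with a 95% interval of −0.24 to 0.13 (edgeR adjusted p = 0.827). These were the narrowest intervals among the 8 in both comparisons.

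The phf1 low P libraries had 143, 134 and 147 CPM of PDR2, and those in low+P 117 and 120 CPM, without overlap. The log2 fold change was 0.23 (SE 0.22, edgeR adjusted p = 1). In phr1 phl1 low P it stood at 118 and 123 CPM, overlapping Col-0, and the phr1 phl1 library labelled low+P had 127 CPM.

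**Figure D4:**
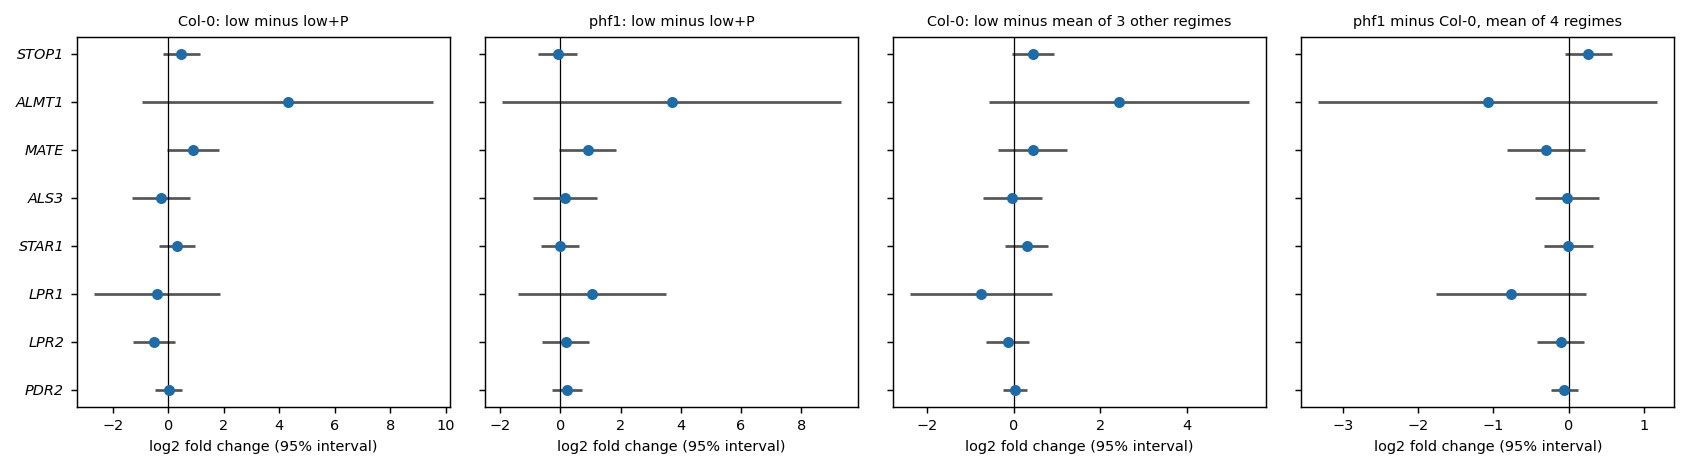
Log2 fold change (points) with 95% interval (bars) from edgeR for the 8 genes in 4 comparisons, with a line at 0. Each interval includes 0, those of PDR2 are narrow and those of ALMT1 are the widest.

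Among the 8 genes, 2 of 28 pairs had a relation over the 25 libraries. STOP1 and LPR1 went in opposite directions (r = −0.72, rho = −0.69, permutation p = 8e-05 and 0.00015, adjusted 0.00224 and 0.0042). The value was −0.66 without the 2 libraries farthest from the median of STOP1 and −0.70 for deviations from group means. ALMT1 and LPR1 went together (r = 0.61, rho = 0.64, permutation p = 0.00148 and 0.00093, adjusted 0.0207 and 0.013), with 0.55 without the 2 farthest libraries and 0.61 for deviations. For STOP1 and its target ALMT1 the relation did not pass, with r = −0.38 and rho = −0.34 (permutation p = 0.0582 and 0.0946, adjusted 0.183 and 0.294). STOP1 was also lower where the root tip sum was higher by rank (rho = −0.56, permutation p = 0.00401, adjusted 0.0257), which did not pass by Pearson's r (r = −0.44, permutation p = 0.0306, adjusted 0.163).

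**Figure D5:**
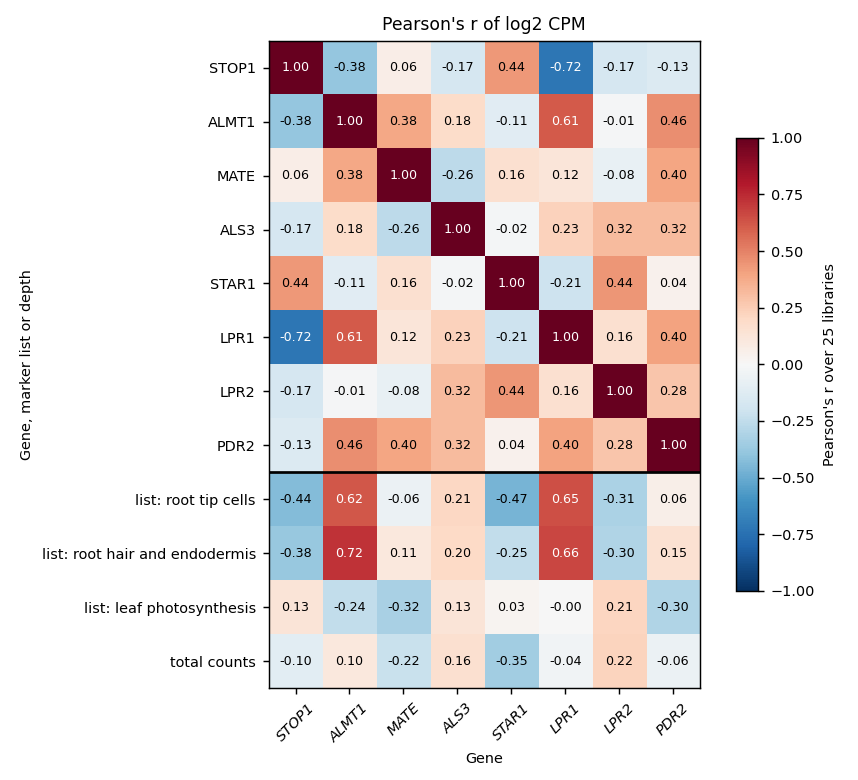
Pearson's r over 25 libraries between the log2 CPM of the 8 genes (upper block) and of each gene with 3 summed marker lists and total counts (lower block), coloured from −1 to 1. STOP1 with LPR1 has r = −0.72, and ALMT1 and LPR1 have r from 0.61 to 0.72 with each other and with both root lists.

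The genes whose pattern over the 25 libraries was most like that of each member were ranked by Pearson's r among 19603 genes, as a description. For ALMT1 these were the borate transporter gene BOR2 (AT3G62270, r = 0.87), DGR2 (r = 0.85) and the high-affinity potassium transporter gene HAK5 (r = 0.83). For STOP1 they were AT1G29760 (0.91), the casein kinase gene ckl3 (0.90) and the carbonic anhydrase gene BCA6 (0.88). For LPR1 they were AT5G05820 (0.84), the arabinogalactan protein gene AGP25 (0.84) and the transporter gene UMAMIT14 (0.84). STAR1 was most like AT3G09830 (0.85), AT3G48080 (0.83) and TOM20-1 (0.82), and PDR2 most like NIG (0.82), AT3G58580 (0.82) and UBA1 (0.79). The closest genes were farther off for MATE, with GGH1 (0.72), AT4G33150 (0.69) and AT4G14368 (0.68), and for ALS3, with AT4G01210 (0.74), SPI (0.70) and AT5G63410 (0.70). LPR2 was most like AT3G13980 (0.81), AT4G35220 (0.80) and AT4G15150 (0.79). All points share library depth and the makeup of the root sample.

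Other genes of the pathway were taken as lists, and edgeR called 0 of them in any comparison. A list on STOP1 regulation held 8 genes, among them the SUMO ligase gene SIZ1 (mean 162 CPM) and the F-box gene RAH1 (67.4 CPM). It also holds STOP2, a relative of STOP1, so not each of the 8 is a regulator of STOP1. Of the 8, 2 had an unadjusted p below 0.05 for Col-0 low P over the 3 other regimes. Their median log2 fold change was 0.29 over the whole list, beside 0.04 over all genes. Of 8 other genes that depend on STOP1, among them the glutamate dehydrogenase genes GDH2 (333 CPM) and GDH1 (318 CPM), 5 had an unadjusted p below 0.05 in this comparison, with a median of 1.103, where 9.9% of all genes did. The root hair and endodermis markers had a median of 1.69 in the same comparison (1 of 6 at an unadjusted p below 0.05) and the root tip markers of −0.22 (0 of 8 tested), and their part was not tested. In phf1, 0 of the 8 genes that depend on STOP1 had an unadjusted p below 0.05 for low P over the other regimes. Their median was −0.06, and 2.06% of all genes had such a p. DESeq2 called 1 of 8 in each STOP1 list for Col-0, GDH2 (log2 fold change 1.38, adjusted p = 0.0862) and STOP2, the close relative of STOP1 (2.34, adjusted p = 0.0881), and none of either list in phf1. DESeq2 called 1.61% of all genes in this Col-0 comparison and 0.0051% in phf1. Between phr1 phl1 and Col-0 in low P, edgeR gave 3 of 8 genes in each STOP1 list at an unadjusted p below 0.05, with medians of −0.52 and −0.90, where 7.54% of all genes did. ALMT1 was at 0 in these phr1 phl1 libraries. DESeq2, with 0.972% of all genes called, called 1 of 8 genes of the regulation list, the relative STOP2 (−3.52, adjusted p = 0.0554). It called 2 of the 8 dependent genes, PGIP1 (−4.09, adjusted p = 0.0128) and the vacuolar malate transporter gene TDT (−2.38, adjusted p = 0.0493). The root hair and endodermis markers had a median of −4.07 in this comparison (0 of 6 at an unadjusted p below 0.05) and the root tip markers of −1.13 (0 of 7 tested), and their part was not tested. In other comparisons DESeq2 called STOP2 for Col-0 low over medium P (log2 3.48, adjusted p = 0.0148), with 507 of 19603 genes. It called GDH1 and GDH2 for Col-0 low over high P (1.53 and 1.92), with 125. For Col-0 low over low+P it called CAMTA2 (0.69), with 289 of 18830. Across the 6 low and low+P groups it called PGIP1 and NRT1.1, with 209. Across the 10 groups it called STOP2, GDH1 and GDH2, with 836, and for phf1 against Col-0 GDH1 (0.87), with 592. STOP2, CAMTA2, PGIP1, NRT1.1 and TDT were named after their values were seen. ALMT1 itself went with 3 of the 8 dependent genes by both coefficients at an adjusted p below 0.1, also named after their values were seen. The nitrate transporter gene NRT1.1 had r = 0.71 and rho = 0.67 (permutation p = 2e-05 and 0.00042, adjusted over 8 relations 0.00016 and 0.00336), with 0.63 without the 2 farthest libraries and 0.61 for deviations. PGIP1, which codes for a polygalacturonase inhibitor, had r = 0.61 and rho = 0.57 (permutation p = 0.00108 and 0.00383, adjusted 0.00432 and 0.0153), and 0.40 without the 2 farthest libraries and 0.67 for deviations. TDT had r = 0.44 and rho = 0.50 (permutation p = 0.028 and 0.0119, adjusted 0.0748 and 0.0317), with 0.51 without the 2 farthest libraries and 0.40 for deviations. SULTR3;5 and GDH1, of the same list, went the other way without passing (r = −0.33 and −0.35, permutation p = 0.105 and 0.0833, adjusted 0.168 and 0.167). For deviations their r was −0.60 and −0.34. PGIP2, GDH2 and CIPK23 had r = 0.22, 0.14 and 0.19 and did not pass either.

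Of the 13 other ALMT genes, 7 had a median of 0 CPM and 7 passed the filter with all libraries. ALMT9, a vacuolar malate channel, had a mean of 40.0 CPM and ALMT4 of 17.7 CPM, and both were above 0 in every library, unlike ALMT1. For Col-0 low P over the 3 other regimes 2 of the 7 had an unadjusted p below 0.05, with a median of 0.14, and between phr1 phl1 and Col-0 in low P 0 of 6 tested did, with a median of −1.02. Of all genes, 9.9% had such a p in the former comparison (median 0.04) and 7.54% in the latter (median −0.03), here and for the lists below. Of the 2 further transport genes, ALS1 had a mean of 49.2 CPM and the citrate transporter gene FRD3 of 3.28 CPM, and 0 of 2 had such a p in either comparison. In some other comparisons 1 of the 2 did, such as Col-0 low P over low+P, with a median of 1.37, where 7.27% of all genes did. Of 10 malate dehydrogenase and citrate synthase genes, 8 were tested, led by cMDH1 (602 CPM) and mMDH1 (160 CPM), and 4 had an unadjusted p below 0.05 between phr1 phl1 and Col-0 in low P, where 7.54% of all genes did, with a median of −1.08 beside −0.03 over all genes. The summed level of the 10 was 828, 993 and 2344 CPM in Col-0 low P libraries A, B and C and 704 and 723 CPM in phr1 phl1, and Col-0 low library C was also the one with the highest root hair and endodermis sum of its group. The part of these cells was not tested. For Col-0 low P over the 3 other regimes, 2 of these 8 had an unadjusted p below 0.05, with a median of 0.21. Of 5 genes of low-phosphate signalling in the tip, led by SHR (49.7 CPM) and CLV2 (21.9 CPM), 0 had an unadjusted p below 0.05 for Col-0 low P over the 3 other regimes, with a median of 0.23, and 1 of 4 tested did between phr1 phl1 and Col-0 in low P, with a median of −0.61. In the lists of this paragraph, DESeq2 called FRD3 and cMDH2 across the 6 low and low+P groups (adjusted p = 0.0451 and 0.0116), with 209 of 18830 genes. Across the 10 groups it called FRD3, ALMT10 and mMDH2 (adjusted p = 0.0633, 0.0332 and 0.0601), with 836 of 19603 genes. For phf1 against Col-0 it called FRD3 and mMDH2 (log2 −2.28 and −0.90, adjusted p = 0.0898 and 0.0607), with 592 genes. These genes were named after their values were seen.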

How the data were processed

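The authors trimmed adaptors with Trimmomatic 0.36, mapped the 50-base single-end reads to TAIR10 with HISAT2 2.1.0 and counted them per gene with featureCounts. The deposited values are whole-number counts that were not normalized. The version of featureCounts is not given in the sources used here. The paper names a silica column kit and the labels a phenol-based extraction of RNA. Nothing was merged: the closest of 21 library pairs within groups had a median chi-square of 1.24, where sampling alone gives 0.455. Of all 300 pairs the closest, at 0.824, was the phr1 phl1 library labelled low+P with phf1 low+P library A.

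The main test was edgeR 4.0.16 in R 4.3.3, after filterByExpr and TMM scaling (quasi-likelihood test, Benjamini-Hochberg adjustment over all genes, threshold 0.1), in 1 fit of the 13 low and low+P libraries (18830 genes) and 1 of all 25 (19603 genes). The CPM and marker sums given are relative to total counts, without TMM. In the correlations and in the ranking of alike genes, the log2 CPM of genes were scaled with TMM, and the marker sums were not. The standard error of a log2 value was obtained by dividing it by the root of its F statistic. DESeq2 1.42.0 was an alternative, beside RLE factors, other filters, a threshold of 0.05, other sets of libraries and each library left out. Permutation tests of correlations were two-sided with 100000 resamples, on log2 CPM with a prior count of 2 for genes. The 2 farthest libraries were chosen by distance from the median of 1 variable only. It was the marker sum, the first named gene of a pair of members, or the dependent gene set beside ALMT1. Libraries extreme only in the other gene were kept. The fits were tested on simulated data. Named genes were the 8 members, the 3 most alike to each and the 2 of highest mean CPM in each list. The members and lists were chosen with earlier results of these data known. The leaf list was led by LHCB1.3 (mean 124 CPM) and PSBO1 (54.7 CPM). Names, lengths and overlaps came from TAIR10.1, in which 26719 of 27206 identifiers matched. Coordinates are left out because the build of the counts was TAIR10. Each library is a separate root system. The labels place Col-0 and phf1 on the same plots in low and in high P and on partly shared plots in medium P and low+P, low+P soil came from low P plots, and the fits have no term for plot.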

Additional observations from a re-analysis of the deposited data

How the results depend on the processing

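The count of called genes among the 8 was 0 in every alternative of the 14 comparisons but 1 of 370: DESeq2 called 1 (ALMT1, adjusted p = 0.0677) between phr1 phl1 and Col-0 in low P, where edgeR called 0. Leaving out each library in turn gave 0 to 0 in each comparison. Over all genes DESeq2 called 209, 289, 0, 29 and 183 genes in the 5 comparisons of low and low+P libraries, where edgeR called 0, 1, 0, 1 and 0, and up to 836 with all 25 libraries, where edgeR called at most 14. Low P over the 3 other regimes in Col-0 gave 11 genes, 21 with a filter at a mean of 1 CPM, 7 at a threshold of 0.05, 2 with the 11 libraries of the genotype and 0 to 328 with single libraries left out (0 without Col-0 low library A or without either Col-0 low+P library, 328 without Col-0 medium library C). With single libraries left out, the counts ran from 0 to 989 for Col-0 low against medium P, 2 to 362 for phf1 against Col-0 and 2 to 111 over the 10 groups, each highest without Col-0 medium library C. Of 500 alternatives to the 19 fold changes given, 11 turned the sign, all by leaving out 1 library, and none passed the threshold. Over the libraries left out, low P over the 3 other regimes in Col-0 ran from −1.20 to 5.57 for ALMT1, −0.51 to 0.19 for ALS3 and −0.14 to 0.14 for PDR2. ALMT1 ran from −7.71 to 1.80 for phf1 low over high P and from −2.53 to 1.28 for phf1 over Col-0, the last without Col-0 medium library B. LPR2 ran from −1.04 to 0.31 for Col-0 low over low+P. MATE kept its sign throughout, at 0.73 to 1.01 in Col-0 and 0.75 to 1.13 in phf1 for low over low+P. No paired analysis was possible because the columns carry neither the replicate number nor the plot. LPR1 at 2 to 40 reads and ALMT1 at 0 to 3 reads in several libraries are limited by depth, and groups of 1 to 3 libraries leave wide intervals.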
